A study of Rattus norvegicus with 16 samples.

Results

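The apolipoproteins that liver makes were followed in 16 rat liver RNA libraries: Apoa1, Apoa2, Apoa4, Apoa5, Apob, Apoc1, Apoc2, Apoc3, Apoe and Apom. The genes were taken by symbol for their known role, and all 10 of the 10 listed were found among the 17055 gene symbols counted. The rats were 48 male Sprague-Dawley animals, 10 weeks old, and each library was made from the pooled liver tissue of 3 rats. The septic rats had cecal ligation and puncture, in which the cecum is tied off and pierced so that gut contents leak, and controls had a sham celiotomy in which the cecum was only lifted out and returned. Liver was taken after 8 h of anesthesia, and hypotension in any group was treated with saline and, where that failed, with less anesthetic. There were 4 libraries in each of 4 groups: Isoflurane-Sepsis (libraries 1 to 4), Isoflurane-Control (5 to 8), Propofol-Sepsis (9 to 12) and Propofol-Control (13 to 16). The isoflurane groups were both induced and maintained with the inhaled agent isoflurane. The propofol groups were induced with injected ketamine-xylazine and maintained with infused propofol. The paper gives as a limitation that propofol is a lipid emulsion, whose lipid may itself affect metabolism. The anesthetic, the lipid given with propofol and the induction drug therefore changed together and cannot be told apart. The prefix of the deposited library names changed with them, so anything it stands for cannot be told apart from them either.

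Apolipoproteins are the protein coat of the particles that carry lipid in blood. Apob is the scaffold on which hepatocytes build very-low-density lipoprotein, Apoa1 and Apoa2 are the main proteins of high-density lipoprotein, and the smaller exchangeable proteins move between particles and steer enzymes and receptors. Liver is a main source of most of them, while intestine also makes several, Apoa4, Apob and Apoa1 among them.

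The libraries held between 14199422 and 49937173 reads on genes, and the smallest count of any member in any library was 1831 reads, for Apom. Some of the other genes named below had far fewer reads. Levels are CPM, read counts scaled to a common library size, after TMM scaling, a correction for the make-up of each library. They were not divided by transcript length, so they are compared between groups for 1 gene and not between genes. The tissue label was checked against markers: all 10 hepatocyte markers were measured, and their summed level lay between 96493 and 150992 CPM in every library. The 8 small intestine markers measured summed to between 84.3 and 685 CPM, nearly all of it Cdh17, and the other 7 summed to between 1.70 and 5.63 CPM of the library totals. In these bulk samples fewer cells of a type and less RNA per cell cannot be told apart, and p-values measure the spread between pools.

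Sepsis moved the apolipoprotein mRNAs in both directions. Under isoflurane, Apob rose and Apoa1, Apoa2, Apoa4 and Apoc2 fell, and under propofol Apoa5 and Apob rose and Apoa1, Apoa2 and Apoc2 fell. Apoc1, Apoc3, Apoe and Apom passed the test under neither anesthetic. By edgeR's quasi-likelihood test at an adjusted p below 0.05, 1 of the 10 was called higher under isoflurane, where 25.7% of the 10361 genes tested were, and 4 were called lower, where 24.4% were. Under propofol 2 were called higher, against 20.4% of 10348 genes, and 3 lower, against 21.7%. The median log2 fold change of the 10 was -0.14 under isoflurane and -0.16 under propofol, beside medians over all genes tested of 0.01 and -0.00161. Every library of the septic group lay above every control for 1 gene under isoflurane (24.3% of all genes) and below for 5 (24.4%). The same held above for 2 genes under propofol (21.1%) and below for 2 (21.1%). With 10 members these shares are near those of all genes, and nothing particular to the members is read from them. Under propofol all genes split into 2107 called higher and 2246 lower, and into 1675 and 2700 with scaling by library totals alone. The counts of members called stood at 2 higher and 4 lower with that scaling, Apoc3 joining the lower ones at an adjusted p of 0.0163 by edgeR.

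**Figure D1:**
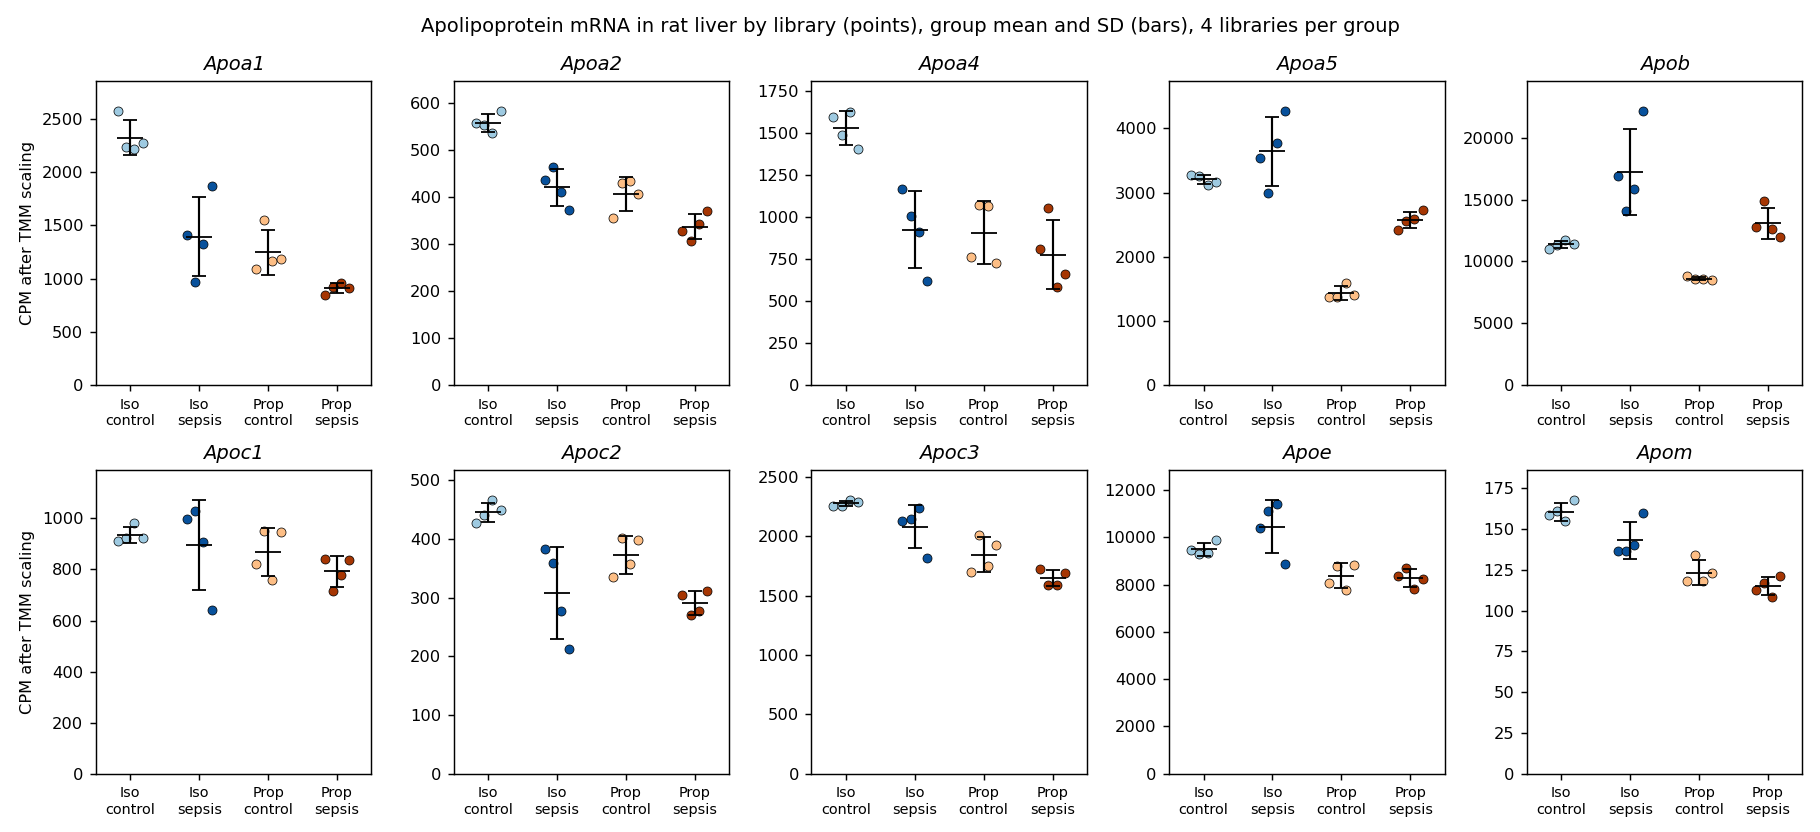
CPM after TMM scaling (y axis, linear from 0) of the 10 apolipoprotein mRNAs in the 4 groups (x axis), with 1 point per library and bars for the group mean and SD (n = 4). Apob was higher in sepsis under both anesthetics, Apoa1 lower, and Apoa5 was lowest in the Propofol-Control libraries, between 1365 and 1596 CPM.

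Apob, the scaffold protein of very-low-density lipoprotein, rose under both anesthetics. Under isoflurane Apob measured 16905, 14117, 15830.2 and 22139 CPM in the septic libraries and 10989, 11353, 11753 and 11429.8 CPM in the controls. Under propofol it measured 12784, 14918, 12644 and 11944 CPM in sepsis and 8827, 8592, 8588 and 8460.3 CPM in controls. Septic and control libraries did not overlap under either anesthetic, and library 4 was the highest of all 16. Apob rose 1.52-fold under isoflurane (log2 fold change 0.60, SE 0.125, adjusted p = 0.00415 by edgeR). Under propofol it rose 1.51-fold (0.60, SE 0.0668, adjusted p = 1.68e-04). The test of the difference between these responses gave -0.00203 on the log2 scale with an SE of 0.148 (adjusted p = 0.996 by edgeR). That estimate changed sign with the scaling, to 0.00513 with RLE size factors.

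Apoa1, the main protein of high-density lipoprotein and the activator of the cholesterol-esterifying enzyme LCAT, fell under both anesthetics. Apoa1 measured 1412, 970.1, 1326 and 1871 CPM in Isoflurane-Sepsis and 2569.6, 2232, 2216 and 2278 CPM in Isoflurane-Control. It measured 844, 918, 955 and 915 CPM in Propofol-Sepsis and 1089, 1552, 1161 and 1179 CPM in Propofol-Control. The septic libraries lay below their controls under each anesthetic, and the Isoflurane-Sepsis libraries overlapped those of Propofol-Control. Apoa1 fell by 0.73 on the log2 scale under isoflurane (SE 0.171, adjusted p = 0.00706 by edgeR). Under propofol it fell by 0.46 (SE 0.108, adjusted p = 0.00711). The responses differed by -0.28 (SE 0.214), which did not pass the test (adjusted p = 0.431 by edgeR).

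Apoa2, the other main structural protein of high-density lipoprotein, also fell under both, with the smallest called changes of the set. Apoa2 measured 436, 463, 409.7 and 372 CPM in Isoflurane-Sepsis and 557, 552, 536 and 581 CPM in Isoflurane-Control, without overlap. In Propofol-Sepsis it measured 326, 307, 343 and 369.8 CPM, and in Propofol-Control 355, 430.0, 434 and 406 CPM. Library 12 of the septic group lay above library 13 of the controls, so these groups overlapped. The log2 fold change was -0.40 under isoflurane (SE 0.0805, adjusted p = 0.00345 by edgeR) and -0.28 under propofol (SE 0.0837, adjusted p = 0.0233). The propofol call was lost without library 9, 14, 15 or 16, at adjusted p-values by edgeR between 0.0538 and 0.0650.

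Apom, which carries sphingosine-1-phosphate on high-density lipoprotein, was called under neither anesthetic. It averaged 143 ± 11.2 CPM (SD, n = 4) in Isoflurane-Sepsis and 161 ± 5.50 CPM in Isoflurane-Control. It averaged 115 ± 5.51 CPM in Propofol-Sepsis and 123 ± 7.68 CPM in Propofol-Control. The log2 fold changes were -0.16 (SE 0.0741, adjusted p = 0.0952 by edgeR) and -0.11 (SE 0.0668, adjusted p = 0.215). Without library 4 the isoflurane change was -0.22 and was called (adjusted p = 0.0172 by edgeR), as it was with library totals alone (-0.23, adjusted p = 0.0263) and in the fit of all 16 libraries (-0.17, adjusted p = 0.0484).

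Apoa4 is made by liver and, in larger part, by intestine, and is carried on chylomicrons and high-density lipoprotein. In Isoflurane-Sepsis it measured 1165, 1005, 911 and 622 CPM, and in Isoflurane-Control 1594, 1489.7, 1626 and 1406 CPM, without overlap. In Propofol-Sepsis it measured 810.0, 1052, 584 and 658 CPM and in Propofol-Control 765, 1074, 1066 and 729 CPM, with broad overlap. Apoa4 fell by 0.72 on the log2 scale under isoflurane (SE 0.166, adjusted p = 0.00679 by edgeR). Under propofol its log2 fold change was -0.23 with an SE of 0.194, and it was not called (adjusted p = 0.355). The difference between the responses was -0.50 (SE 0.278) and did not pass the test (adjusted p = 0.290 by edgeR), so a difference between the anesthetics was not detectable for this gene.

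Apoa5, which promotes the clearance of triglyceride-rich particles by lipoprotein lipase, was the member whose response to sepsis differed between the anesthetics. Apoa5 measured 3538, 2987, 3777 and 4265 CPM in Isoflurane-Sepsis and 3276, 3254, 3124 and 3168 CPM in Isoflurane-Control. It measured 2422, 2552, 2587 and 2728 CPM in Propofol-Sepsis and 1365, 1367, 1596 and 1409 CPM in Propofol-Control. The isoflurane groups overlapped through library 2, whereas every Propofol-Sepsis library lay above every Propofol-Control library. Apoa5 rose 1.79-fold under propofol (log2 fold change 0.84, SE 0.0655, adjusted p = 3.69e-05 by edgeR), the 55th smallest p of the 10348 genes tested. Under isoflurane the log2 fold change was 0.19 with an SE of 0.104 and was not called (adjusted p = 0.164 by edgeR). Without library 2 it was 0.26 and was called (adjusted p = 0.0299).

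The isoflurane response of Apoa5 minus its propofol response was -0.66 on the log2 scale (SE 0.124, adjusted p = 0.0202 by edgeR). It had the 37th smallest p of 10621 genes and was the 1 member called of 10, where 1.06% of all genes were called lower and 1.66% higher. Leaving out library 12 ended this call at -0.63 (adjusted p = 0.0502 by edgeR). The level from which each response started also differed: Apoa5 averaged 3206 ± 71.7 CPM in Isoflurane-Control and 1434 ± 109.5 CPM in Propofol-Control (SD, n = 4 each). In sepsis the averages were 3642 ± 531 CPM and 2572 ± 126 CPM, and those libraries did not overlap either. The propofol response, the difference between responses and the difference between controls share the Propofol-Control libraries.

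**Figure D2:**
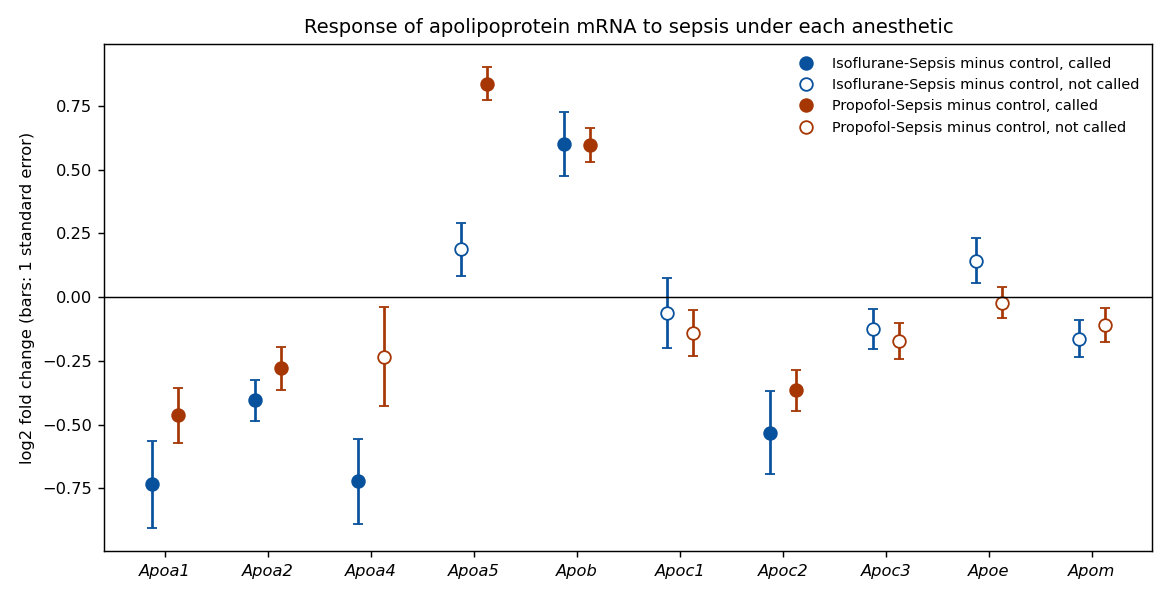
Log2 fold change of sepsis against control (y axis) for each apolipoprotein mRNA (x axis), with bars of 1 standard error, for isoflurane and propofol. Filled points passed the test at an adjusted p below 0.05, and Apoa5 shows the widest gap between anesthetics, 0.19 against 0.84.

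Apoa4 and Apoa5 lie next to each other on the chromosome, in the order Apoa1, Apoc3, Apoa4, Apoa5 of coding genes in the RefSeq annotation of GRCr8. Their promoter windows are shown because these neighbours differed in their propofol values, 0.84 for Apoa5 and -0.23 for Apoa4 on the log2 scale, a difference between genes that was not tested. Of the 10 members, 6 were found in the RefSeq promoter table: Apoa4, Apoa5, Apoc1, Apoc2, Apoe and Apom. Each window of 300 bases is printed 5′ to 3′ on the strand of the gene, with the start site near its right end. Capitals mark matches, on either strand, to the letters AGGTCA (a core bound by nuclear receptors), CAAAGTCCA (HNF4), CAAAGGTCA (a direct repeat core, which holds the AGGTCA letters), TTGCNNAA (C/EBP) or GTTAAT (HNF1).
Apoa4, GRCr8 chr8:55435529-55435828, plus strand: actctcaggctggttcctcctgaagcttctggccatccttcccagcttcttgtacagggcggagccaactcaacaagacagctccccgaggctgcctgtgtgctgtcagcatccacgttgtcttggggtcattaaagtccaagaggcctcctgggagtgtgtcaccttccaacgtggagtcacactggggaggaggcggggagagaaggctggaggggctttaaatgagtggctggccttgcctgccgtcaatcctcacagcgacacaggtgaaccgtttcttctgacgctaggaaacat
Apoa5, first annotated start, GRCr8 chr8:55457621-55457920, plus strand: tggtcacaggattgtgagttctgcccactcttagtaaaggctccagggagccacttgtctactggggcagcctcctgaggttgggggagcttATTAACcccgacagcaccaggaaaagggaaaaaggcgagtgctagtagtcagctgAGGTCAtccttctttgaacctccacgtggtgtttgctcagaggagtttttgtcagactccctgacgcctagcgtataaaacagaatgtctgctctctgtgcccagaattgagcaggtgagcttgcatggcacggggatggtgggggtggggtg
The Apoa5 window held AGGTCA on the gene's strand at -103 to -98 from the start and GTTAAT on the other strand at -158 to -153, printed as its reverse complement. The windows of the other annotated Apoa5 start and of Apoa4 held none of the letters searched. Over all 33469 promoter windows of the table, 16.2% held AGGTCA, 7.45% GTTAAT, 10.6% TTGCNNAA, 0.424% CAAAGGTCA and 0.391% CAAAGTCCA. These matches describe letters in a window, and binding was not measured.

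Apoc2, the activator of lipoprotein lipase, fell under both anesthetics. It measured 384, 359, 277 and 213 CPM in Isoflurane-Sepsis and 428, 440.1, 466 and 449 CPM in Isoflurane-Control. It measured 305, 270.3, 277 and 312 CPM in Propofol-Sepsis and 336, 401, 357 and 399 CPM in Propofol-Control. Neither pair of groups overlapped, and the Isoflurane-Sepsis libraries were the most spread. Apoc2 fell by 0.53 on the log2 scale under isoflurane (SE 0.163, adjusted p = 0.0237 by edgeR). Under propofol it fell by 0.37 (SE 0.0813, adjusted p = 0.00566). The isoflurane call was lost without library 3, 7 or 8, at adjusted p-values by edgeR of 0.0544, 0.0608 and 0.0536.

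Apoc3, an inhibitor of lipoprotein lipase and of the uptake of particle remnants, was called under neither anesthetic. Apoc3 measured 2132, 2144, 2238 and 1818 CPM in Isoflurane-Sepsis and 2259.7, 2256, 2306 and 2288 CPM in Isoflurane-Control. These groups did not overlap, yet the fold change was small beside its error (log2 -0.13, SE 0.0799, adjusted p = 0.219 by edgeR). Under propofol the averages were 1647 ± 68.5 CPM in sepsis and 1847 ± 146 CPM in controls (SD, n = 4). The log2 fold change there was -0.17 (SE 0.0691, adjusted p = 0.0700 by edgeR), and it was called without library 13 (adjusted p = 0.0451).

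Apoe, the ligand by which remnants bind receptors of the LDL receptor family, was called under neither anesthetic. Apoe measured 10413, 11108, 11402 and 8889 CPM in Isoflurane-Sepsis and 9446, 9303, 9343 and 9875 CPM in Isoflurane-Control. Libraries 1 to 3 lay above all controls and library 4 lay below them. With library 4 the log2 fold change was 0.14 (SE 0.0888, adjusted p = 0.208 by edgeR), and without it 0.22 and called (adjusted p = 0.0128). Under propofol Apoe averaged 8285 ± 368 CPM in sepsis and 8374 ± 534 CPM in controls, a log2 fold change of -0.02 (SE 0.0605, adjusted p = 0.794 by edgeR).

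Apoc1, which hinders receptor uptake of particles, averaged 895 ± 177 CPM in Isoflurane-Sepsis and 936 ± 32.7 CPM in Isoflurane-Control (SD, n = 4). It averaged 792 ± 59.3 CPM in Propofol-Sepsis and 869.6 ± 94.7 CPM in Propofol-Control, and septic and control libraries overlapped under both anesthetics. The log2 fold changes were -0.06 (SE 0.137, adjusted p = 0.731 by edgeR) and -0.14 (SE 0.0909, adjusted p = 0.237). The isoflurane value changed sign without library 4, to 0.07. Apoc2, Apoc4, Apoc1 and Apoe follow one another on the chromosome in the RefSeq annotation. Of these Apoc2 was called lower under both anesthetics while Apoc1 and Apoe were called under neither. Apoc4, not a member, was called lower under propofol (-0.39, adjusted p = 0.01135 by edgeR). Under isoflurane Apoc4 was at -0.36 and not called.

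Library 4 was the Isoflurane-Sepsis library farthest from the group mean for most members, and it was so in opposite directions for different members. Against the mean of its group on the log2 scale it was lower for Apoa4 (-0.54), Apoc2 (-0.49), Apoc1 (-0.46), Apoe (-0.23), Apoc3 (-0.19) and Apoa2 (-0.17). It was higher for Apoa1 (0.46), Apob (0.38), Apoa5 (0.24) and Apom (0.16). For Apoa1 and Apoa5 library 2 lay farther from the group mean, at -0.48 and -0.27. Over all genes tested the median deviation of library 4 was 0.01. Scaling holds that median near 0 in every library, so it cannot show whether library 4 stood apart over all genes. The calls for Apob, Apoa1, Apoa2, Apoa4 and Apoc2 under isoflurane stood without library 4.

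In control liver, every apolipoprotein mRNA had a higher mean under isoflurane than under propofol, and 7 of the 10 were called higher by edgeR in the fit of all 16 libraries. Over all 10621 genes tested 1379 were called higher, which is the count to set beside the members, and 1414 were called lower. Both directions together made 26.3%. The median log2 difference of the members was 0.39, beside -0.00211 over all genes. Every Isoflurane-Control library lay above every Propofol-Control library for 9 members (20.0% of all genes, with 19.7% the other way), Apoc1 being the member that overlapped. The differences, isoflurane minus propofol, were 1.16 for Apoa5 (SE 0.0891, adjusted p = 3.37e-06), 0.90 for Apoa1 (SE 0.152, adjusted p = 6.81e-04) and 0.75 for Apoa4 (SE 0.197, adjusted p = 0.0112). They were smaller for Apoa2 (0.45), Apob (0.40), Apom (0.38) and Apoc3 (0.30), all called, and for Apoc2 (0.26), Apoe (0.18) and Apoc1 (0.11), which were not. The p for Apoa5 was the smallest of all genes tested, a 2.24-fold difference. Without library 4 in the fit Apoc2 and Apoe were called too (adjusted p = 0.0488 and 0.0179 by edgeR).

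These control differences depended in part on scaling. TMM factors lay between 0.920 and 0.979 in the isoflurane libraries and between 1.02 and 1.09 in the propofol libraries. With library totals alone the median of all genes moved to -0.15, and the calls over all genes moved to 688 higher and 2814 lower. Under that scaling Apob (0.26, adjusted p = 0.0652 by edgeR) and Apoc3 (0.16, adjusted p = 0.0934) lost their calls and Apoc1 was at -0.04. Apoa5, Apoa1, Apoa4, Apoa2 and Apom kept theirs. Of the 10 hepatocyte markers, 5 were called higher in Isoflurane-Control than in Propofol-Control, Cps1 by 1.36, Ass1 by 1.04, Alb by 0.47, Hpd by 0.32 and Ttr by 0.30 on the log2 scale. The other 5 were not called, and Fabp1 (-0.13) and Asgr1 (-0.08) lay the other way. Their summed level was 140300 to 150992 CPM in Isoflurane-Control and 104959 to 117017 CPM in Propofol-Control, and their part in the result was not tested.

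**Figure D3:**
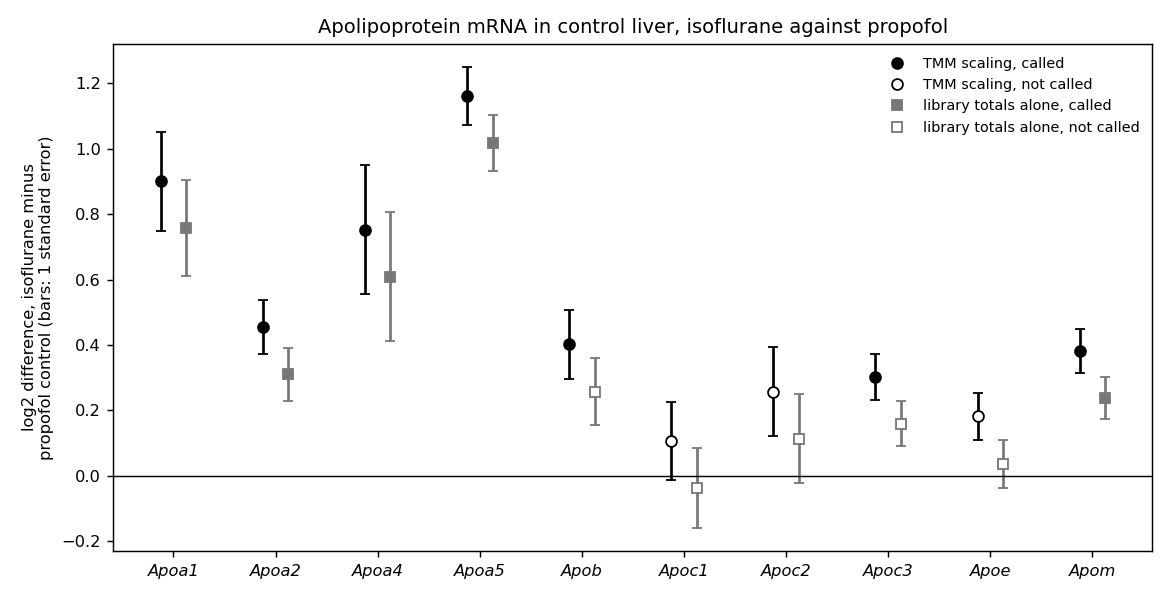
Log2 difference between Isoflurane-Control and Propofol-Control (y axis) for each apolipoprotein mRNA (x axis), with bars of 1 standard error, under TMM scaling (circles) and under library totals alone (squares). All 10 circles lie above 0, from 0.11 for Apoc1 to 1.16 for Apoa5, and with library totals Apoc1 lies at -0.04 and only 5 squares are filled, that is called at an adjusted p below 0.05.

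The order of the groups was not the same for all members. Isoflurane-Control had the highest mean for Apoa1, Apoa2, Apoa4, Apoc1, Apoc2, Apoc3 and Apom, and Isoflurane-Sepsis for Apoa5, Apob and Apoe. For Apoa5 the order ran Isoflurane-Sepsis, Isoflurane-Control, Propofol-Sepsis, Propofol-Control, with overlap between the first pair of neighbours and none between the later ones. For Apob it ran Isoflurane-Sepsis, Propofol-Sepsis, Isoflurane-Control, Propofol-Control, and the septic groups overlapped. For Apoa1, Apoa2 and Apoa4 the Isoflurane-Sepsis and Propofol-Control libraries overlapped in the middle of the order. For Apoc1 every pair of neighbours overlapped.

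As a share of all reads on genes, the members together took 3.48% ± 0.221 of reads in Isoflurane-Sepsis and 3.14% ± 0.0137 in Isoflurane-Control (SD, n = 4). They took 2.96% ± 0.170 in Propofol-Sepsis and 2.60% ± 0.0755 in Propofol-Control. Apob made up 45.7% ± 5.78 of these reads in Isoflurane-Sepsis and 35.2% ± 0.844 in Isoflurane-Control, and 45.3% ± 2.07 and 35.7% ± 1.68 under propofol. No test was made on this sum.

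Ratios of reads within a library need no scaling between libraries, and those given here were chosen after the values were seen and carry no test. Reads on Apob for each read on Mttp, the transfer protein that loads lipid onto the Apob scaffold, numbered 230.1, 185, 233 and 302 in Isoflurane-Sepsis. In Isoflurane-Control they numbered 54.0, 58.8, 53.2 and 55.3. Under propofol they were 105, 149, 127 and 109 in sepsis and 48.3, 32.4, 30.6 and 45.2 in controls. The ratio was thus higher in every septic library than in any control library, whichever the anesthetic. Reads on Apoa5 for each read on its neighbour Apoa4 averaged 4.25 ± 1.82 in Isoflurane-Sepsis and 2.10 ± 0.147 in Isoflurane-Control. They averaged 3.50 ± 0.947 in Propofol-Sepsis and 1.62 ± 0.295 in Propofol-Control (SD, n = 4).

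**Figure D4:**
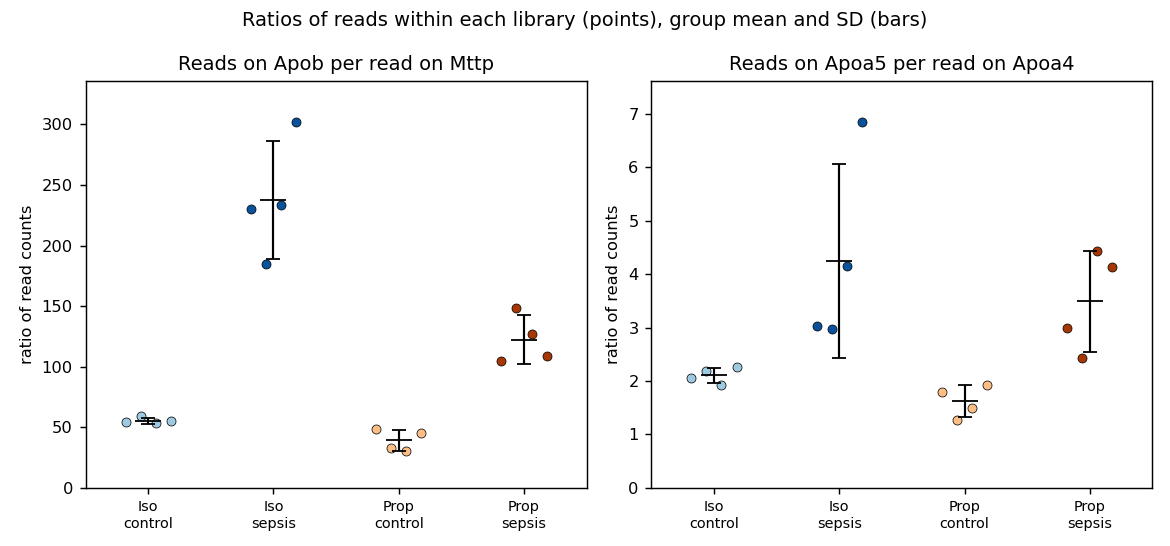
Reads on Apob per read on Mttp (left) and on Apoa5 per read on Apoa4 (right) in each library (points, y axis linear from 0) by group (x axis), with the group mean and SD as bars (n = 4). The 8 septic libraries lie between 105 and 302 for Apob to Mttp and the 8 controls between 30.6 and 58.8.

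The genes listed for lipoprotein assembly and secretion mostly fell while Apob rose. The list also holds genes that act beside those steps, Pdzk1 and A1cf among them. Of 12 such genes tested, 7 fell, 1 rose and 4 were not called under isoflurane, and 8 fell, 3 rose and 1 was not called under propofol. Of all genes tested 24.4% fell and 25.7% rose under isoflurane, and 21.7% fell and 20.4% rose under propofol. The median log2 fold change of the 12 genes was -0.95 under isoflurane and -0.94 under propofol. Mttp, the lipid transfer protein, averaged 72.8 ± 3.62 CPM in Isoflurane-Sepsis and 206 ± 11.5 CPM in Isoflurane-Control. It fell by 1.5 on the log2 scale there (SE 0.0702, adjusted p = 1.01e-05 by edgeR) and by 1.09 under propofol (SE 0.148, adjusted p = 4.09e-04), and it was named after its values were seen. Pdzk1, a scaffold that keeps the HDL receptor at the cell surface, fell by 3.01 under isoflurane and 1.66 under propofol. Its level was low, averaging 2.39 CPM in Isoflurane-Sepsis and 19.5 CPM in Isoflurane-Control. A1cf, a partner of the enzyme that edits Apob mRNA, fell by 2.08 and 1.70. Cideb, which enlarges nascent particles, fell by 1.54 and 1.17, and Dgat2, a triglyceride-synthesizing enzyme, fell by 1.33 and 1.44. Tmem41b, a lipid scramblase of the endoplasmic reticulum, rose by 0.39 under isoflurane and 0.53 under propofol. Surf4, a cargo receptor for lipoprotein export, rose by 0.42 under propofol, and P4hb, the partner subunit of the transfer protein, by 0.25, while under isoflurane they were at 0.10 and 0.09 and not called.

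**Figure D5:**
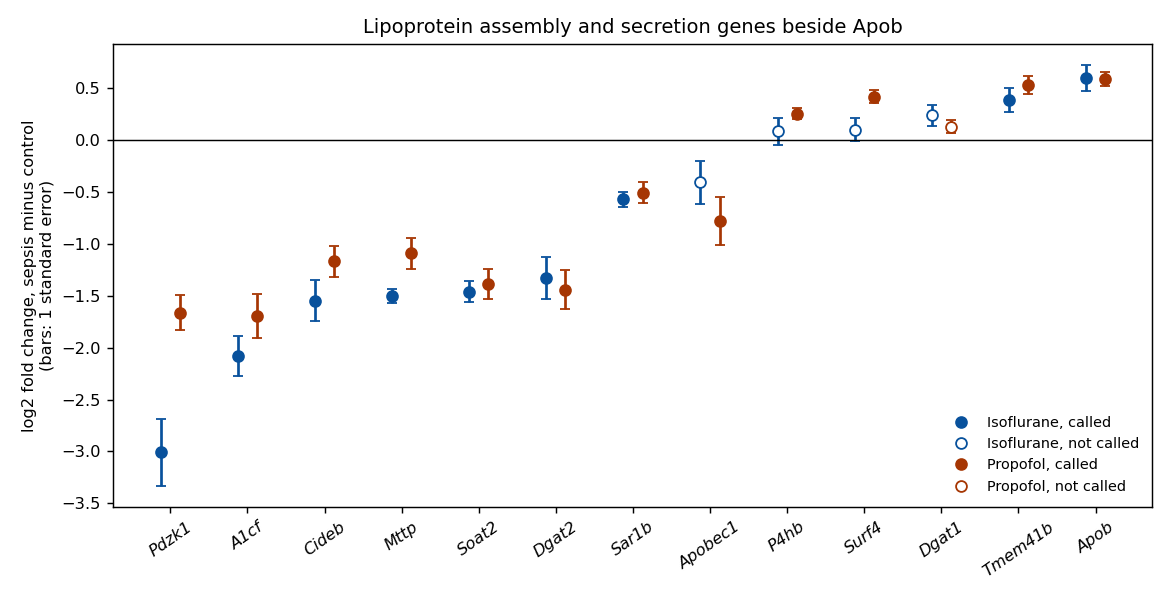
Log2 fold change of sepsis against control (y axis) for the 12 genes tested from the assembly and secretion list and for Apob (x axis), with bars of 1 standard error, for isoflurane and propofol. Filled points passed the test, and values run from -3.01 for Pdzk1 under isoflurane to 0.60 for Apob.

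Of 11 genes for receptors and uptake tested, 1 rose and 5 fell under isoflurane, and 1 rose and 4 fell under propofol, with medians of -0.20 and -0.26. Over all genes tested, 25.7% rose and 24.4% fell under isoflurane, and 20.4% rose and 21.7% fell under propofol. Vldlr, a receptor for triglyceride-rich particles, rose by 1.54 on the log2 scale under isoflurane and was at 0.44 and not called under propofol. Scarb1, the HDL receptor, fell by 0.90 under isoflurane and 0.76 under propofol. Lrp1 fell by 0.66 and 0.21. Sort1 fell by 0.74 under isoflurane (-0.38 under propofol, not called), and Lsr fell by 0.26 under propofol (0.13 under isoflurane, not called).

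Among genes for remodelling of particles in plasma and for lipid efflux, 12 were tested. Under isoflurane 4 rose and 4 fell (median 0.06), and under propofol 3 rose and 4 fell (median -0.15). The shares over all genes were 25.7% rising and 24.4% falling under isoflurane, and 20.4% and 21.7% under propofol. Abca1, which loads cholesterol onto Apoa1, rose by 0.83 under isoflurane and 1.31 under propofol on the log2 scale. Lpl, the lipase that Apoc2 activates, rose by 1.08 and 0.85, and Abcg1 by 0.60 and 0.39. Lcat, the enzyme that Apoa1 activates, fell by 0.57 and 0.35. Abcg5, a subunit of the sterol exporter into bile, fell by 0.80 and 0.52, and its partner Abcg8 fell by 1.21 under isoflurane (-0.53 under propofol, not called).

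Of 23 transcription regulators of apolipoprotein genes tested, 6 rose and 10 fell under isoflurane, and 5 rose and 9 fell under propofol. Their medians were -0.18 and -0.13. Of all genes tested 25.7% rose and 24.4% fell under isoflurane, and 20.4% rose and 21.7% fell under propofol. The share of regulators that rose was near that of all genes. The bile acid receptor gene Nr1h4 fell by 1.81 under isoflurane and 2.11 under propofol, and its target Nr0b2 by 2.71 and 3.42. Nr0b2 was near the floor in sepsis, averaging 0.184 CPM in Isoflurane-Sepsis and 0.736 CPM in Propofol-Sepsis. Hnf4a, a nuclear receptor that binds several apolipoprotein promoters, fell by 1.06 and 0.73 and was named after its values were seen. Creb3l3 fell by 1.28 and 1.00. Rora rose by 2.52 and 1.04, Cebpb by 1.5 and 0.59, Nr5a2 by 0.84 and 0.64, and Foxa1 by 0.75 and 0.93. Rora was low in controls, averaging 2.75 CPM in Isoflurane-Control and 1.97 CPM in Propofol-Control. Its Isoflurane-Sepsis libraries ran from 4.79 to 34.9 CPM, and those of Cebpb from 155 to 443 CPM. Under propofol the septic and control libraries of Rora and of Cebpb overlapped. Foxa2 rose by 1.18 under isoflurane and was at 0.16 and not called under propofol. Cebpa was the regulator whose response differed between the anesthetics, by 1.22 (SE 0.279, adjusted p = 0.0366 by edgeR, isoflurane minus propofol). It rose by 1.17 under isoflurane and was at -0.07 and not called under propofol. Its Isoflurane-Sepsis libraries were spread, with a median of 83.9 CPM and a highest value of 163 CPM.

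The other apolipoproteins and clusterin mostly fell. Of 10 tested, 6 fell, 1 rose and 3 were not called under isoflurane, and 7 fell and 3 were not called under propofol, with medians of -0.45 and -0.49, where 24.4% and 21.7% of all genes tested fell. Apof, which modulates lipid transfer between particles, fell by 1.09 and 0.99 on the log2 scale. Apol3 fell by 0.92 and 0.67, and Apoo, a mitochondrial inner membrane protein, by 0.52 under isoflurane (-0.13 under propofol, not called). Clu, or clusterin, rose by 0.36 under isoflurane (0.22 under propofol, not called). Apol9a fell by 0.84 under propofol and measured 0.08 under isoflurane, and its responses differed by 0.91 (SE 0.222, adjusted p = 0.0442 by edgeR). Without library 4 the isoflurane counts of the assembly genes (7 lower, 1 higher), the receptors (5 and 1) and this list (6 and 1) were as given. The regulators then stood at 9 lower and 7 higher, Mlxipl losing its call (adjusted p = 0.0538 by edgeR) and Nr1d1 gaining one (0.0468). The remodelling genes stood at 4 lower and 3 higher, Pltp losing its call (0.106).

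Markers of other cells moved with sepsis beside these results. The counts below stand beside 25.7% of all genes rising and 24.4% falling under isoflurane, and 20.4% and 21.7% under propofol. Of the 7 neutrophil and monocyte markers tested, 5 rose under each anesthetic, and the summed level of the list was 1251 to 2061 CPM in Isoflurane-Sepsis against 148 to 200.5 CPM in Isoflurane-Control. It was 1151 to 3277 CPM in Propofol-Sepsis against 387 to 643 CPM in Propofol-Control, with Ly6c at 0 throughout. Most of each sum was the single gene Lcn2, so the sums follow that gene and are not read as a measure of these cells. Lcn2 averaged 1461 CPM in Isoflurane-Sepsis and 159 CPM in Isoflurane-Control, and 2248 and 474 CPM in the septic and control propofol groups. S100a9, the next highest of the list, averaged 33.5 and 8.51 CPM in the septic and control isoflurane groups. Under propofol it averaged 17.0 and 10.3 CPM. Of 10 macrophage markers 6 rose and 1 fell under isoflurane, and 2 rose and 1 fell under propofol, with sums of 414 to 649 CPM over all groups. Of 5 endothelial markers 3 fell under isoflurane, and 2 fell and 1 rose under propofol, and their sums lay between 105 and 208 CPM. Of 5 stellate cell markers 2 rose and 1 fell under isoflurane, and 1 rose and 1 fell under propofol, with sums of 92.3 to 153 CPM. The 1 lymphocyte marker tested, Nkg7, rose under isoflurane, and that list summed to 1.07 to 3.93 CPM. Of the hepatocyte markers 3 of 10 fell under isoflurane and 2 under propofol, their sums being 118186 to 129471 CPM in Isoflurane-Sepsis and 96493 to 107521 CPM in Propofol-Sepsis. Of 3 intestinal markers tested, Cdh17 and Lct rose and Fabp2 fell under both anesthetics. The intestinal list summed to 361 to 627 CPM in Isoflurane-Sepsis against 213 to 219 CPM in Isoflurane-Control, and to 323 to 685 CPM in Propofol-Sepsis against 84.3 to 271 CPM in Propofol-Control. Nearly all of these sums was Cdh17, whose level the other 7 markers did not share. The sums and the rise of Cdh17 are therefore not read as a measure of intestinal cells. The other 7 markers summed, in CPM of the library totals, to 1.70 to 3.69 in Isoflurane-Sepsis against 2.80 to 3.41 in Isoflurane-Control. Under propofol they summed to 3.42 to 5.63 in sepsis against 2.60 to 4.31 in controls. The part of these cells in the apolipoprotein values was not tested.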

How the data were processed

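Total RNA from pools of 3 livers was enriched for polyadenylated RNA and made into stranded libraries. The authors deposited, per library, raw read counts for 17055 gene symbols. STAR and rn5 are named in the submitters' processing notes, and the counting program is not given in the sources used here. The 2 entries that name no gene, reads outside genes (21.6% to 25.4%) and reads over more than 1 gene (1.07% to 1.35%), were left out. No pair of libraries of 1 group matched within sampling noise (lowest chi-square per degree of freedom 3.47).

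Within each anesthetic, septic libraries were compared with controls by edgeR 4.0.16 (R 4.3.3; quasi-likelihood, TMM, filterByExpr with a minimum count of 10 and total of 15) in fits of 8 libraries. The interaction and the control contrast used all 16. Each p was adjusted by Benjamini-Hochberg over all genes tested and called below 0.05. The code was tested on simulated data. Alternatives were DESeq2 1.42.0, limma-voom 3.58.1, other scalings and filters, 1 fit of all 16 libraries, thinning, a stricter threshold and leaving out each library.

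The members, gene lists and motifs were chosen with earlier results of these data known. Named genes were all members and, from each pathway list and sepsis comparison, up to 3 called genes with the largest rise and fall, of which some are not reported here. Nearest genes were ranked by root mean square difference of centred log2 CPM (pseudocount 0.5). Promoters are from RefSeq GRCr8, while a genome of the rn5 build was not used here.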

Additional observations from a re-analysis of the deposited data

Results flagged for a closer look

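Each member was looked at in each of the 4 groups for a library far from the other 3 by the ratio of its gap to the range of the group. Of 40 groups, 2 passed, where chance gives about 1 in 20. In Isoflurane-Control, Apoc1 was highest in library 7 at 984 CPM, with a ratio of 0.837. In Isoflurane-Sepsis, Apom was highest in library 4 at 159.9 CPM, with a ratio of 0.846.

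The response of Apoa5 to sepsis differed between the anesthetics by -0.66 on the log2 scale, isoflurane minus propofol, by the interaction test of edgeR. The anesthetic, the lipid given with propofol, the induction drug and the prefix of the library names changed together and cannot be told apart in this difference.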

How the results depend on the processing

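Across 820 fits of a member under an alternative, 779 kept direction and side of the threshold, 15 lost a call, 9 gained one and 17 changed sign. At an adjusted p below 0.01, 0 members were called for the interaction by edgeR, 1 having an unadjusted p below 0.05, while DESeq2 and limma-voom each called 1 at 0.05. Leaving out 1 library gave 1 to 2 members called higher and 3 to 5 lower under isoflurane, 2 higher and 2 to 4 lower under propofol, 0 to 1 lower for the interaction (0 without library 12) and 7 to 9 higher between controls. All sign changes were of uncalled values. For the Apob interaction the value was 0.00513 with RLE size factors, 0.00513 with DESeq2 and 7.53e-04 with genes of mean CPM of at least 1, and leaving out 1 library gave -0.145 to 0.0844. For Apoc1 between controls it was -0.0381 with library totals. Leaving out 1 library gave -0.142 to 0.0716 for Apoc1 under isoflurane, -0.0601 to 0.00853 for Apoe under propofol, and for the interaction -9.01e-04 to 0.20 for Apoc1 and -0.00740 to 0.0967 for Apoc3. The causes were not tested. With reads on albumin left out, the members' share of reads was 3.75% (septic) and 3.44% (control) under isoflurane and 3.16% and 2.79% under propofol. No paired analysis was possible because the library numbers run from 1 to 16 and no number is shared between groups. Library pools of 3 rats give no spread between single rats.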

Other observations

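For each member the nearest of 10641 genes was sought by the root mean square difference of log2 CPM over the 16 libraries, each gene centred on its own mean. Apoc3 lay nearest to Ttr, a thyroid hormone carrier made by liver, at 0.0547, and Apom to Pon1, an esterase carried on high-density lipoprotein, at 0.0667, with Alb next at 0.0683. Apoe lay nearest to Cox4i1 at 0.0686, Apoc2 to Aldh6a1 at 0.0795, Apoc1 to Msra at 0.0923, Apob to Usp34 at 0.0953 and Apoa2 to Sdhd at 0.104. Apoa5, Apoa4 and Apoa1 had no gene as near: Cyp3a9 lay at 0.191 from Apoa5, Mdh1 at 0.195 from Apoa4 and Ttll9 at 0.208 from Apoa1. These genes also varied most about their own means, with root mean squares of 0.525, 0.466 and 0.528, against 0.162 for Apoe. The distances were not divided by this spread, so they do not show that these genes have fewer genes like them. Among the members themselves, Apoc3 and Apom were each other's nearest at 0.115, and Apoa5 and Apob were each other's nearest at 0.296. These distances describe likeness over these 16 libraries and carry no test.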
